A study of Homo sapiens with 24 samples.

Results

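The miR-99/100 and miR-125 families were represented by 10 mature miRNAs of the 2656 in the miR-seq table, taken by name: hsa-miR-99a-5p, hsa-miR-99a-3p, hsa-miR-99b-5p, hsa-miR-99b-3p, hsa-miR-100-5p, hsa-miR-125a-5p, hsa-miR-125a-3p, hsa-miR-125b-5p, hsa-miR-125b-1-3p and hsa-miR-125b-2-3p. The prefix is left out from here on. They were measured in OV90, an established epithelial ovarian cancer line, in which the NF-κB subunits RELA and RELB were knocked down with inducible shRNA. There were 24 small RNA libraries in 6 groups of 4 replicates. Adherent cultures carried a negative control shRNA (shNeg, which the sample labels call wildtype), shRELA or shRELB, and spheroid cultures, a condition that enriches for tumor-initiating cells, carried the same. All 6 groups, controls included, received 1 µg/ml doxycycline for 72 h. Each shRNA was carried by 1 stable line, so the line and the knockdown cannot be told apart, and spheroids were grown in a different medium from adherent cells, so culture form and medium cannot be told apart. The RELA and RELB transcripts are not miRNAs, and their knockdown was not checked here. The labels do not say that replicates were separate cultures, so p-values measure the spread between these samples, which may be technical. Values are CPM, counts brought to a common library size, with library sizes scaled by the trimmed mean of M values (TMM), and a member was called where edgeR's quasi-likelihood test gave a Benjamini-Hochberg false discovery rate (FDR) below 0.01 over the 905 miRNAs tested and the fold change exceeded 2. Of the members, 9 passed the filter on low counts for that test, and miR-125b-1-3p did not.

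Mature miRNAs load into Argonaute proteins and pair with messenger RNAs mainly through the seed, bases 2 to 8. Each hairpin precursor gives a 5p and a 3p arm, and in these families the 5p arm is the guide that accumulates while the 3p arm is usually the less stable passenger. The members lie in 3 related clusters that each hold a miR-99/100 hairpin, a let-7 hairpin and a miR-125 hairpin. The miR-99/100 guides are known to repress MTOR and IGF1R, let-7 represses growth genes such as HMGA2 and RAS family members, and miR-125b has been linked to p53 signaling and apoptosis. miR-99a, miR-100 and miR-125b are known to be low in many epithelial ovarian tumors.

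The 5p arms are shown first because they form 2 seed families, and the seed is in capitals. RefSeq mature sequences were matched for 10 of 10 members.
miR-99a-5p: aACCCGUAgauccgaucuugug
miR-100-5p: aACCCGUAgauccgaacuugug
miR-99b-5p: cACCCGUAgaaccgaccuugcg
miR-125b-5p: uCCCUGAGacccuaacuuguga
miR-125a-5p: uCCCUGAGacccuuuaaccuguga
Counted from 1 at the 5′ end, miR-99a-5p differs from miR-100-5p only by U16A, and from miR-99b-5p by A1C, U11A, U16C and U21C. The seed ACCCGUA is held by 3 of the 2370 mature miRNAs in RefSeq, all of them members. The seed CCCUGAG is held by 3 as well, the third being miR-4319, which had no count in any library. A read with an error at base 16 could be counted for either of miR-99a-5p and miR-100-5p, so low values of one are uncertain where the other is higher.

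The miR-125b guide is made from hairpins in both the chromosome 21 and the chromosome 11 clusters, with the same sequence. It is grouped with the chromosome 21 arms below, although in the shRELA groups its source was not resolved. Its estimated counts came in steps of 0.5, with 11 of 24 values not whole. Its passenger arms differ between the hairpins and are shown because they tell the 2 sources apart.
miR-125b-1-3p: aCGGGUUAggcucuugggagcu
miR-125b-2-3p: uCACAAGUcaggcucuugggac
The passengers are 7 edits apart and share no seed.

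The positions are in GRCh38.p14. The chromosome 21 cluster is on the plus strand within the noncoding host gene MIR99AHG, with MIR99A at chr21:16539089-16539169, MIRLET7C at chr21:16539828-16539911 and MIR125B2 at chr21:16590237-16590325. MIR99A is intronic, while MIRLET7C and MIR125B2 overlap an exon of a MIR99AHG transcript, and MIR125B2 lies 50325 bases beyond MIRLET7C. The chromosome 11 cluster is intronic on the minus strand within MIR100HG, with MIR100 at chr11:122152229-122152308, MIRLET7A2 at chr11:122146522-122146593 and MIR125B1 at chr11:122099757-122099844. The chromosome 19 cluster is compact, with MIR99B at chr19:51692612-51692681, MIRLET7E at chr19:51692786-51692864 and MIR125A at chr19:51693254-51693339 on the plus strand within SPACA6, opposite SPACA6-AS1. MIR99B and MIRLET7E are intronic and MIR125A overlaps a SPACA6 exon.

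Library totals ran from 3797176 to 8283546 counts in adherent and from 959134 to 3580932 in spheroid culture, so depth moved with culture, and the part of depth in the culture differences was not tested. A floor of 3 counts stood at 0.362 to 0.79 CPM in adherent and 0.838 to 3.13 CPM in spheroid libraries. One library, spheroid shNeg replicate 1, stood apart: it had counts for 432 miRNAs, against 801 to 1006 in the other spheroid libraries. Several results of members that use it are also given without it. All 7 epithelial marker miRNAs had counts, led by miR-200c-3p (1641 to 15662 CPM) and miR-205-5p. Summed CPM of 6 blood markers was 21.5 to 48.4 in adherent and 64.9 to 725 in spheroid libraries, that of 5 fibroblast and smooth muscle markers 68.0 to 366 and 72.6 to 315, of 3 skeletal muscle markers 0 to 4.85 and 0 to 8.4, and of 2 nervous system markers 107 to 329.7 and 23.5 to 143. The liver marker miR-122-5p was high in every library, at 13733 to 29403 CPM, and the part of other cells' RNA in the results was not tested. miR-429 and miR-203a-3p were at 0 in some libraries, and of the blood markers miR-451a reached 6.29 CPM at most while miR-486-5p ran from 15.5 to 707 CPM. In bulk libraries fewer cells of a type and less RNA per cell cannot be told apart.

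The 3 clusters differed in abundance by orders of magnitude. The 4 chromosome 19 members made up 11.3 to 22.4% of the counts of a library, and the other 6 members together 0.00133 to 0.0721%. miR-125a-5p was the most abundant miRNA of all in the 3 adherent groups and ranked between 2 and 3 in the spheroid groups. Within each seed family the chromosome 19 guide therefore dominated: miR-125a-5p was at least 99.6% of the miR-125 seed counts and miR-99b-5p at least 99.8% of the miR-99/100 seed counts in every library. The large relative changes described next for the chromosome 21 guides thus concern at most 0.395% of the miR-125 seed and at most 0.199% of the miR-99/100 seed.

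**Figure D1:**
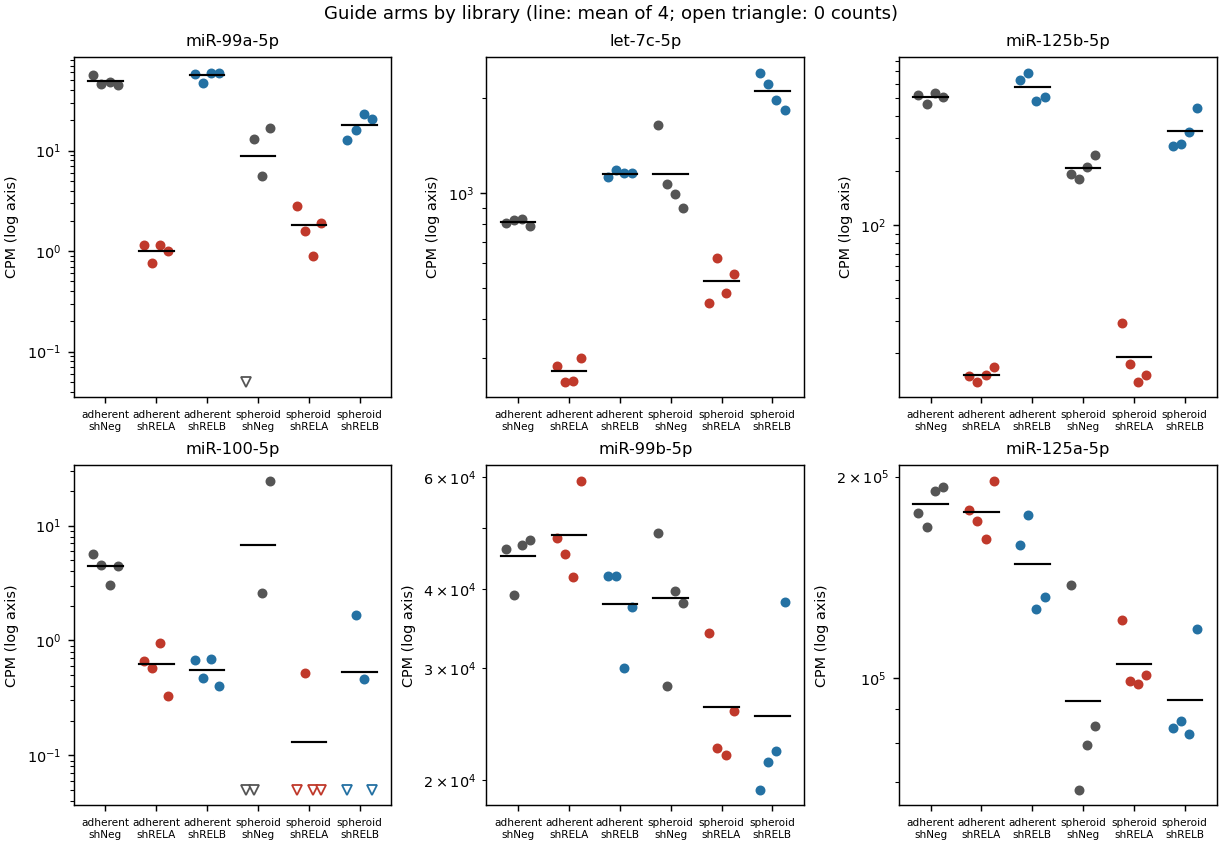
Levels of the 5p arms of the 3 clusters in the 24 libraries, as TMM-scaled CPM on log axes, with each point a library, the line the mean of 4, and open triangles libraries with 0 counts drawn at the bottom of the axis. The top row shows the chromosome 21 cluster, in which the shRELA libraries are lowest for miR-125b-5p (13.9 to 29.1 CPM) and let-7c-5p (253 to 623 CPM).

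The first comparison asked what RELA knockdown did to these miRNAs in adherent cells. The 4 tested arms of the chromosome 21 cluster, miR-99a-5p, miR-99a-3p, miR-125b-5p and miR-125b-2-3p, fell to between 2.15% and 3.27% of the shNeg level, and the 4 tested chromosome 19 arms were not called. The count was 4 of 9 members called, all lower, against a background of 3.76% of all 905 miRNAs called in this comparison. The median log2 fold change was -2.76 over the 9 members and 0.09 over all miRNAs.

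miR-125b-5p was at 522, 463, 529.7 and 504 CPM in the adherent shNeg libraries (505 ± 29.8, SD, n = 4) and at 14.9, 13.9, 15.2 and 16.7 CPM in the adherent shRELA libraries. The groups did not overlap, and every shRELA library was lower than every control. The log2 difference was -5.05 ± 0.24 (SE), with an FDR of 6.91e-18 by edgeR, which corresponds to 33.1-fold lower in shRELA. Its passenger from the chromosome 21 hairpin, miR-125b-2-3p, moved with it, from 9.86 to 11.5 CPM in shNeg to 0 to 0.952 CPM in shRELA (log2 difference -4.93 ± 0.63, FDR 3.10e-07 by edgeR).

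miR-99a-5p was at 56.0, 46.1, 48.2 and 44.7 CPM in adherent shNeg and at 1.16, 0.763, 1.14 and 0.993 CPM in adherent shRELA. These shRELA values rest on 4 to 7 counts a library, against 173 to 338 in shNeg, and the groups did not overlap. The log2 difference was -5.54 ± 0.47 (SE, FDR 5.20e-11 by edgeR). miR-99a-3p, its passenger, had 115 counts over the shNeg libraries and 2 over the shRELA libraries, and was also called (FDR 1.68e-07 by edgeR). With so few counts its change is better read as a ratio of summed counts scaled to library size, 61.3-fold higher in shNeg with a counting interval of 16.6 to 513 (95%, exact, counting error only).

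In the same adherent shRELA libraries the guides of the chromosome 19 cluster did not separate from the controls. miR-125a-5p was at 161275 to 197247 CPM in shRELA and 168347 to 192849.9 CPM in shNeg, and miR-99b-5p at 41757 to 59305 and 39129 to 47812 CPM. Both ranges overlapped. The log2 differences of the 4 chromosome 19 arms lay between -0.04 and 0.15 with SEs of 0.16 to 0.19, and none was called.

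RELB knockdown in adherent cells left the chromosome 21 cluster high. No member was called by edgeR, DESeq2 or limma, where 7.07% of all miRNAs were called by edgeR. At an unadjusted p under 0.05 there was 1, miR-100-5p, called in some alternative fits and given with its cluster below. miR-125b-5p was at 628, 689, 479 and 507 CPM, overlapping the shNeg range of 463 to 529.7 CPM, and miR-99a-5p at 58.6, 46.8, 59.9 and 59.0 CPM. miR-125b-2-3p was at 12.0, 19.4, 14.6 and 19.9 CPM, above every shNeg library, with a log2 difference of 0.64 ± 0.44 that did not pass (FDR 0.398 by edgeR).

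The shRELA and shRELB changes share the shNeg libraries, so the 2 knockdown lines were also compared directly. In adherent culture miR-99a-5p was 53.5-fold, miR-125b-5p 37.8-fold and miR-125b-2-3p 47.6-fold lower in shRELA than in shRELB, and miR-99a-3p was called lower too. These 4 were the only members called among 9, with 10.9% of all miRNAs called, and no shRELA library overlapped a shRELB library for any of them.

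In spheroids the shRELA line again had little of the chromosome 21 guides. The members called against spheroid shNeg were miR-99a-5p, miR-99a-3p, miR-125b-5p and miR-100-5p, all lower, 4 of 9 against a background of 15.1%, with medians of -1.06 over the members and 0.09 over all miRNAs. miR-125b-5p was at 191, 179, 210.3 and 243 CPM in spheroid shNeg and at 29.1, 17.3, 13.9 and 15.2 CPM in spheroid shRELA. The groups did not overlap, and the log2 difference was -3.45 ± 0.23 (FDR 1.30e-13 by edgeR). Without spheroid shNeg replicate 1 it was -3.49 ± 0.22.

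miR-99a-5p was at 0, 13.0, 5.64 and 16.8 CPM in spheroid shNeg, the 0 being the library that stood apart, and at 2.81, 1.58, 0.895 and 1.90 CPM in spheroid shRELA. The ranges overlapped through that library only. The log2 difference was -2.26 ± 0.54 (FDR 0.00161 by edgeR) and -2.65 ± 0.41 without it. The call was lost without spheroid shNeg replicate 4 (-1.79), with limma on log2(CPM + 1) (-1.24) and in a fit of only the groups compared (-2.21). miR-99a-3p had 17 counts in spheroid shNeg and 1 in spheroid shRELA (FDR 6.54e-04 by edgeR), a ratio of 25.0 with an interval of 3.92 to 1046, and that call was lost in a fit of only the groups compared (-3.97). Without spheroid shNeg replicate 1 miR-99a-3p was still called, at -4.15 ± 1.01.

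miR-125b-2-3p did not pass in spheroids. It was at 0, 8.40, 6.16 and 5.62 CPM in shNeg and at 3.28, 1.05, 0.448 and 4.56 CPM in shRELA, with a log2 difference of -1.06 ± 0.62 (FDR 0.203 by edgeR). Without spheroid shNeg replicate 1, which held no count of it, the control mean was 6.72 ± 1.48 CPM (SD, n = 3), every control library lay above every shRELA library, and the log2 difference was -1.44 ± 0.51, still short of the threshold (FDR 0.0342 by edgeR).

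The spheroid shRELA and shRELB lines differed in the same 4 chromosome 21 arms as the adherent lines, the only members called out of 9 (6.63% of all miRNAs were called). miR-125b-5p was 17.6-fold, miR-99a-5p 9.96-fold and miR-125b-2-3p 5.15-fold lower in shRELA, and miR-99a-3p had 1 count in shRELA against 42. The groups did not overlap for any of the 4, and the spheroid shNeg libraries do not enter these values except through the shared estimate of spread. The call of miR-125b-2-3p was lost without spheroid shRELA replicate 2 (-2.15) or replicate 3 (-2.02).

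Against spheroid shNeg, RELB knockdown gave a single called member, miR-100-5p, against a background of 13.4%, with medians of 0.30 over the members and 0.16 over all miRNAs. The chromosome 21 guides were higher in the shRELB mean without passing. miR-125b-5p was at 273, 281, 327 and 442 CPM, above all 4 shNeg libraries, with a log2 difference of 0.69 ± 0.20 (FDR 0.0103 by edgeR), and miR-99a-5p was at 12.7, 16.0, 23.3 and 20.6 CPM with 1.05 ± 0.42 (FDR 0.0611 by edgeR). Without spheroid shNeg replicate 1 the values were 0.65 ± 0.19 (FDR 0.00887) and 0.67 ± 0.31 (FDR 0.111 by edgeR), both short of 2-fold.

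**Figure D2:**
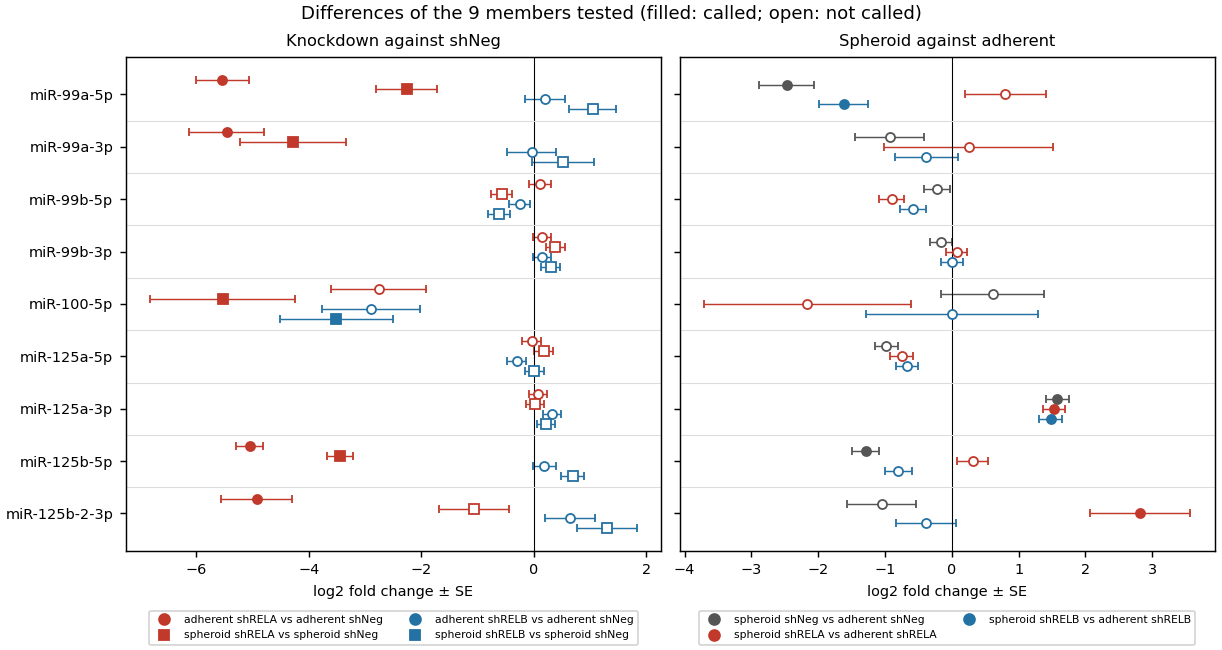
Log2 fold changes with SE of the 9 tested members, for knockdown against shNeg of the same culture (left; circles adherent, squares spheroid) and for spheroid against adherent culture of the same line (right). Filled symbols passed both thresholds and open symbols did not, and the shRELA points of miR-99a-5p, miR-99a-3p and miR-125b-5p are filled in both cultures.

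The knockdown change was then compared between cultures by an interaction term. For RELA, 3 members were called, all with a smaller fall in spheroids, against a background of 7.62%: miR-125b-5p (difference of log2 changes 1.60 ± 0.30, FDR 4.11e-04 by edgeR), miR-99a-5p (3.27 ± 0.76, FDR 0.00284) and miR-125b-2-3p (3.87 ± 0.91, FDR 0.00301). Without spheroid shNeg replicate 1 the values were 1.57 ± 0.29, 2.89 ± 0.58 and 3.50 ± 0.76, and all 3 were called. The adherent and spheroid means of miR-125b-5p were 15.2 and 18.9 CPM in shRELA, not called different, against 505 and 206 CPM in shNeg. Those of miR-99a-5p were 1.01 and 1.8 CPM in shRELA, not called different, against 48.8 and 8.87 CPM in shNeg. For miR-125b-2-3p they were 0.327 and 2.33 CPM in shRELA, called higher in spheroids, against 10.6 and 5.04 CPM in shNeg. miR-99a-5p rested on 23 counts in adherent and 16 in spheroid shRELA. The call of miR-99a-5p was lost without spheroid shRELA replicate 1 (3.08) and that of miR-125b-2-3p without spheroid shRELA replicate 4 (3.36) or with limma (2.51). Neither passed in a fit of only the groups compared, in which the single called member was miR-125b-5p. For RELB no member was called by edgeR, DESeq2 or limma, against a background of 8.51% by edgeR, and 0 had an unadjusted p under 0.05.

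The passenger arms were used to ask which hairpin supplied miR-125b. Over all libraries miR-125b-2-3p of chromosome 21 had 753 counts and miR-125b-1-3p of chromosome 11 had 3, or 0.397% of the pair (95% exact binomial interval 0.0819 to 1.16%, counting error only). No library held more than 1 count of miR-125b-1-3p, and those 3 libraries were adherent shNeg replicates 1 and 4 and spheroid shNeg replicate 3. In adherent shRELA the pair had 7 counts in all and in spheroid shRELA 22, none from miR-125b-1-3p, for which the exact 95% upper limits of the chromosome 11 share were 41.0% and 15.4%, so the source of the remaining miR-125b-5p was not resolved there at this depth. In adherent shRELB 0 of 339 counts gave an exact upper limit of 1.08%. The passengers of the 2 hairpins may differ in stability or capture, which was not tested.

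The share of the chromosome 21 passengers in the sum with their guide was taken from counts summed over the 4 libraries of a group. For miR-125b this is not the share within 1 hairpin, since the guide can also come from chromosome 11. miR-125b-2-3p was 2.02% of the sum with miR-125b-5p in adherent shNeg (exact binomial interval 1.77 to 2.30%) and 1.99% in adherent shRELA (0.805 to 4.07%), so both arms were lower together. The summed share of miR-125b-2-3p was 2.74% in adherent shRELB (2.46 to 3.05%) and 3.53% in spheroid shRELB (2.96 to 4.17%). In spheroid shRELA it was 11.7% (7.48 to 17.2%), from 22 passenger and 166 guide counts, and in spheroid shNeg 2.42% (1.65 to 3.42%). Of those 22 passenger counts 12 came from replicate 4 and 7 from replicate 1. miR-99a-3p was 9.96% of the sum with miR-99a-5p in adherent shNeg, 8.51% in adherent shRELB, 17.8% (13.1 to 23.3%) in spheroid shRELB and 24.6% (15.1 to 36.5%) in spheroid shNeg, where 5 of 17 passenger counts and no guide count came from replicate 1. These intervals cover counting error only and do not include the spread between libraries, so differences of these shares between groups were not tested.

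**Figure D3:**
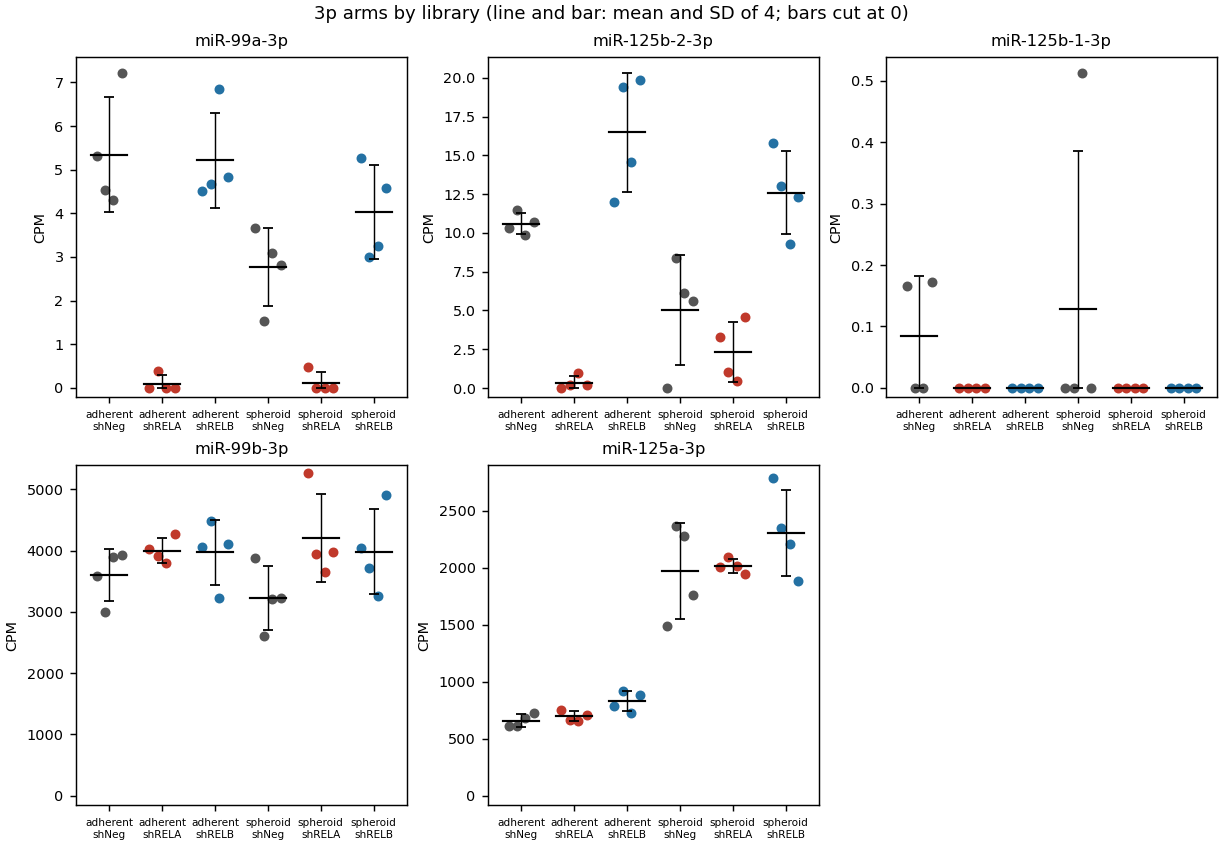
Levels of the 3p arms in the 24 libraries, as TMM-scaled CPM on linear axes, with each point a library and the line and bar the mean and SD of 4. miR-99a-3p is at or near 0 in all 8 shRELA libraries, miR-125b-1-3p reaches at most 0.513 CPM, and miR-125a-3p is higher in every spheroid library (1487 to 2790.4 CPM) than in any adherent library (614 to 919 CPM).

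miR-100-5p, the guide of the chromosome 11 cluster, was near the floor in most groups. It was at 5.64, 4.53, 3.05 and 4.47 CPM in adherent shNeg, at 0.331 to 0.952 CPM in adherent shRELA and at 0.403 to 0.685 CPM in adherent shRELB. Both knockdown groups lay below every control library. The log2 differences of -2.76 ± 0.85 (FDR 0.034 by edgeR) and -2.90 ± 0.87 (FDR 0.0211 by edgeR) missed the threshold. Both passed without spheroid shNeg replicate 1, at -2.77 ± 0.69 and -2.90 ± 0.71, and also without spheroid shNeg replicate 4 (-2.86 ± 0.71 and -3.06 ± 0.72). The shRELB change also passed without spheroid shNeg replicate 2 (-3.04). In a fit of only the groups compared both changes passed (-2.85 for shRELA and -2.99 for shRELB). They also passed with no filter on low counts (-2.84 and -2.94). Its passenger miR-100-3p had no count in any library.

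In spheroids the miR-100-5p calls rested on 1 library. It was at 0, 0, 2.57 and 24.6 CPM in spheroid shNeg, 0, 0.525, 0 and 0 CPM in spheroid shRELA and 0, 1.66, 0.465 and 0 CPM in spheroid shRELB. Only replicate 4 of the controls was clearly high. The log2 differences were -5.53 ± 1.29 for shRELA (FDR 0.00124 by edgeR), from 1 count against 40, and -3.51 ± 1.00 for shRELB (FDR 0.00835 by edgeR). Without that library they were -2.84 ± 1.41 for shRELA and -0.84 ± 1.09 for shRELB, and neither was called. Without spheroid shNeg replicate 1 they were -5.94 ± 1.11 for shRELA and -3.9 ± 0.86 for shRELB, both called. The shRELB call was lost in 15 of the 24 fits that left out 1 library. Within a library, the ratio of miR-99a-5p to miR-100-5p was 9.81 to 15.4 in adherent shNeg, at most 2.60 in adherent shRELA and 77.9 to 117 in adherent shRELB (each 2-sided exact permutation p = 0.0286, the smallest 4 against 4 can give, adjusted p = 0.0504 over 30 ratio tests).

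Culture was compared next, first in the shNeg controls, where 3 of 9 members and 42.2% of all miRNAs were called, with medians of -0.93 and -0.26. The chromosome 21 guides were lower in spheroids: miR-125b-5p by a log2 difference of -1.29 ± 0.20 (FDR 1.89e-06 by edgeR) and miR-99a-5p by -2.47 ± 0.41 (FDR 4.35e-06 by edgeR), with no overlap of the groups in either. Without spheroid shNeg replicate 1 the values were -1.26 ± 0.20 and -2.09 ± 0.29. The miR-125b-5p change fell under the 2-fold threshold with library totals in place of TMM (-0.85) and with a filter at a mean of 10 CPM (-0.91), and the call of miR-99a-5p was lost in a fit of only the groups compared (-2.16). The third called member, miR-125a-3p, rose.

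The same direction for miR-99a-5p was called in shRELB cells (-1.62 ± 0.37, FDR 5.86e-04 by edgeR) but not with limma (-1.60). Between the shRELB cultures 2 of 9 members and 25.0% of all miRNAs were called by edgeR. miR-125b-5p had a log2 difference of -0.80 ± 0.20 there, short of 2-fold. In shRELA cells miR-99a-5p (0.80 ± 0.61) and miR-125b-5p (0.31 ± 0.23) were not called, while miR-125b-2-3p was called higher in spheroids (2.82 ± 0.75, FDR 0.00229 by edgeR). That call rested on 7 counts in adherent and 22 in spheroid shRELA, the ranges of 0 to 0.952 and 0.448 to 4.56 CPM overlapped, and it was lost with limma and without adherent shRELA replicate 1 (2.32), spheroid shRELA replicate 1 (2.54) or spheroid shRELA replicate 4 (2.13). In shRELA cells 2 of 9 members and 32.6% of all miRNAs were called between cultures.

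On chromosome 19 the arms of miR-125a differed in opposite directions between cultures. miR-125a-3p was at 614, 616, 681 and 729 CPM in adherent shNeg and at 1487, 2366, 2282 and 1762 CPM in spheroid shNeg. All spheroid libraries lay above all adherent ones. The log2 difference was 1.58 ± 0.17 (FDR 8.82e-10 by edgeR), with 1.53 ± 0.17 in shRELA and 1.48 ± 0.17 in shRELB cells, both called, so the rise was close to 3-fold in each line (2.99, 2.89 and 2.78). Without spheroid shNeg replicate 1 the shNeg value was 1.7 ± 0.15.

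miR-125a-5p, the guide from the same hairpin, was lower in spheroids of all 3 lines without overlap between cultures, by 1.97-fold in shNeg, 1.68-fold in shRELA and 1.59-fold in shRELB, all short of 2-fold. It was at 176659.9, 168347, 190555 and 192849.9 CPM in adherent shNeg and at 137697, 68156, 79631 and 84798 CPM in spheroid shNeg. The highest spheroid value was that of replicate 1, the library that stood apart. The log2 difference was -0.98 ± 0.17 (FDR 1.16e-05 by edgeR), and -1.23 ± 0.15 without it, which passed the 2-fold threshold. It passed in 12 of the 24 fits that left out 1 library. The difference was -0.75 ± 0.17 in shRELA and -0.67 ± 0.17 in shRELB cells.

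The ratio of the arms, taken within a library after 0.5 was added to each count, does not depend on the scaling of libraries. miR-125a-5p exceeded miR-125a-3p by 288, 273, 279.9 and 264 in adherent shNeg and by 92.6, 28.8, 34.9 and 48.1 in spheroid shNeg, a 6.01-fold lower ratio in spheroids. This held in 4 of 4 spheroid libraries (2-sided exact permutation p = 0.0286, adjusted p = 0.0504), and the log2 difference was -2.59, or -2.92 without spheroid shNeg replicate 1. In adherent shRELB the ratio was 149 to 200.2, below every adherent shNeg library (p = 0.0286 by the exact permutation test, adjusted p = 0.0504), while in adherent shRELA it was 236 to 279 and overlapped them. No adjusted p of the 30 ratio tests was below 0.05, and 17 of the 30 reached the smallest p that the design allows.

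The arm ratio of miR-99b overlapped between cultures in shNeg but not in the knockdown lines. It was 12.1 to 13.0 in adherent shNeg and 10.8 to 12.7 in spheroid shNeg. In each knockdown line it was lower in every spheroid library than in any adherent one, a difference that was not tested. In adherent shRELA it was 11.0 to 13.9, overlapping the adherent controls. It was 9.15 to 10.3 in adherent shRELB, below every adherent shNeg library (log2 difference -0.40, exact permutation p = 0.0286, adjusted p = 0.0504), and 5.70 to 6.49 in spheroid shRELA and 4.77 to 7.80 in spheroid shRELB. Both knockdown groups lay below every spheroid control library, by 1.93-fold (exact permutation p = 0.0286 each, adjusted p = 0.0504). The levels behind this were 38774 ± 8579, 26051 ± 5664 and 25273 ± 8711 CPM of miR-99b-5p (SD, n = 4) and 3227 ± 519, 4206 ± 717 and 3981 ± 694 CPM of miR-99b-3p in spheroid shNeg, shRELA and shRELB. No single difference of these was called, the log2 difference of miR-99b-5p being -0.57 ± 0.19 in shRELA (FDR 0.0248 by edgeR) and -0.62 ± 0.19 in shRELB (FDR 0.0164 by edgeR). Between the shRELA cultures miR-99b-5p was lower in spheroids without overlap (-0.9 ± 0.19, FDR 2.80e-04 by edgeR), short of 2-fold. It passed in 6 of the 24 fits that left out 1 library.

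The guides of the chromosome 19 cluster also shifted against each other. miR-99b-5p was 0.232 to 0.262 of miR-125a-5p in adherent shNeg and 0.357 to 0.499 in spheroid shNeg, without overlap, while spheroid shRELA (0.223 to 0.280) and shRELB (0.229 to 0.322) lay below the spheroid controls (exact permutation p = 0.0286 each, adjusted p = 0.0504).

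**Figure D4:**
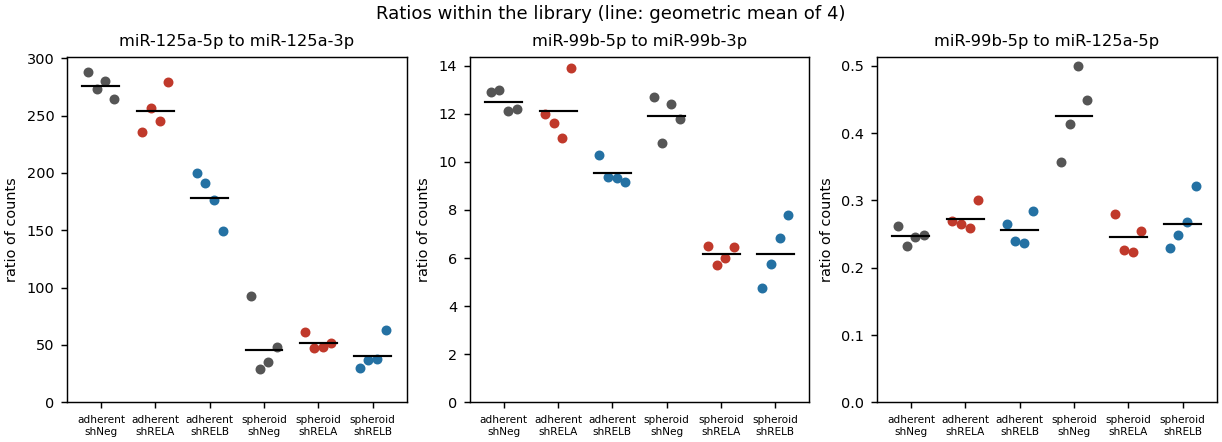
Ratios of counts within each library for the chromosome 19 members, with each point a library and the line the geometric mean of 4, on linear axes from 0. The ratio of miR-125a-5p to miR-125a-3p is lower in every spheroid library (at most 92.6) than in any adherent library (at least 149), and the miR-99b arm ratio is lowest in the spheroid knockdown groups (4.77 to 7.80), with adherent shRELB next (9.15 to 10.3).

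In order of mean level, miR-125b-5p ran from adherent shRELB (576 CPM) over adherent shNeg (505), spheroid shRELB (331), spheroid shNeg (206) and spheroid shRELA (18.9) to adherent shRELA (15.2), and of these neighbours the first pair and the last pair overlapped. miR-99a-5p followed the same order, from 56.1 CPM in adherent shRELB to 1.01 CPM in adherent shRELA, with an overlap at every step except that from adherent shNeg to spheroid shRELB. For miR-125a-5p, from 182103 CPM in adherent shNeg to 92570.5 CPM in spheroid shNeg, only the step from adherent shRELB to spheroid shRELA was free of overlap, and miR-99b-3p, between 3227 and 4206 CPM, overlapped at every step.

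The let-7 arms of the same clusters were examined next. let-7a-5p is also made from hairpins on chromosomes 9 and 22, so its level is not that of the chromosome 11 hairpin, whose own arm let-7a-2-3p had 0 to 9 counts a group and was not tested. Of 7 arms listed, those of let-7 and miR-100-3p, 4 passed the filter. let-7c-5p of chromosome 21 was at 791 to 831 CPM in adherent shNeg and 253 to 301 CPM in adherent shRELA (log2 difference -1.57 ± 0.18, FDR 2.00e-08 by edgeR). That was the single called arm of the 4 tested there, where 3.76% of all miRNAs were called. The median of the list was 0.16, against 0.09 over all miRNAs. let-7c-5p fell in spheroid shRELA too (-1.13 ± 0.17, FDR 6.86e-06 by edgeR), and was called lower in shRELA than in shRELB in both cultures (-2.08 ± 0.18 adherent and -2.0 ± 0.18 spheroid). In spheroid shNeg let-7c-5p was highest in replicate 1, the library that stood apart, at 1646 CPM against 899.9 to 1074 CPM in the others. The spheroid shRELA value without that library is not given.

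The mature let-7 sequences are close, which bears on how reads were split between them.
let-7c-5p: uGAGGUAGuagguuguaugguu
let-7a-5p: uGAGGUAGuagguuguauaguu
let-7e-5p: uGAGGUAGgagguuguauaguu
let-7c-5p differs from let-7a-5p by G19A alone, and let-7a-5p was at 61102 to 117194 CPM in adherent culture, so a small share of misassigned let-7a reads would add to let-7c-5p, and its level in shRELA is uncertain for that reason. In spheroid shRELA all 4 tested arms of the list were called, where 15.1% of all miRNAs were called. let-7c-5p was lower, and let-7e-5p (1.04 ± 0.13), let-7e-3p (1.03 ± 0.28) and let-7a-5p (1.46 ± 0.13) were higher, with a list median of 1.04 against 0.09. let-7e-5p lies between miR-99b and miR-125a on chromosome 19, whose guides were not called in that comparison. Neither shRELB comparison had any of the 4 called by edgeR, where 7.07% of all miRNAs were called in adherent and 13.4% in spheroid shRELB. At an unadjusted p under 0.05 there were 3 in adherent and 3 in spheroid shRELB, the latter being let-7c-5p (0.87 ± 0.17), let-7e-5p (0.84 ± 0.13) and let-7a-5p (0.74 ± 0.13), short of 2-fold. The shNeg culture comparison had 1 of 4 called, let-7e-3p (-1.24 ± 0.28), where 42.2% of all miRNAs were called. Both let-7e-3p calls use spheroid shNeg replicate 1, at 19.8 CPM against 85.5, 109 and 117 CPM in the other controls. Their values without that library are not given, so both calls are uncertain.

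The miR-10 arms, relatives of the miR-99/100 family by sequence, served as a second list of 4, all tested. None was called by edgeR after RELA knockdown in either culture or after RELB knockdown in adherent cells. Of all miRNAs 3.76%, 15.1% and 7.07% were called in adherent shRELA, spheroid shRELA and adherent shRELB. At an unadjusted p under 0.05 there were 0, 1 and 1 of the miR-10 arms, in the same order. In spheroid shRELB 3 of 4 were called higher (miR-10a-3p by 1.29 ± 0.26, miR-10b-3p by 2.02 ± 0.41, and miR-10b-5p from a mean of 332 to 753 CPM), where 13.4% of all miRNAs were called. All 4 were called lower in spheroid than in adherent shNeg, with log2 differences of -1.94 to -3.36, where 42.2% of all miRNAs were called and 189 of the 905 were called lower, and a list median of -2.29 against -0.26 over all miRNAs.

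Likeness was described by Pearson's r of log2(CPM + 1) over the 24 libraries, which share 3 lines and 2 cultures, among 329 other miRNAs whose mean CPM reached 10. miR-99a-5p was most like miR-145-5p (r = 0.94), which fell from a mean of 90.0 CPM in adherent shNeg to 11.1 CPM in adherent shRELA, and then miR-181a-2-3p (0.828). miR-145-5p is one of the fibroblast and smooth muscle markers, and the part of such cells in the result was not tested. miR-125b-5p was most like miR-375-3p (0.862) and miR-145-5p (0.855). miR-125a-3p was most like miR-320a-3p (0.984) and miR-320b (0.983), with miR-320a-3p at means of 8183 CPM in adherent and 34476 CPM in spheroid shNeg. miR-125a-5p was nearest to miR-625-3p (0.901) and miR-30d-5p (0.895), miR-99b-5p to miR-769-5p (0.91) and miR-29a-3p (0.86), and miR-99b-3p, least like any, to miR-30c-2-3p (0.734) and miR-191-5p (0.714).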

How the data were processed

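Small RNA libraries of OV90 cells were made by the authors with a UMI-based miRNA kit, trimmed with Cutadapt and assigned to miRBase miRNAs with miRDeep2 on GRCh38. Whether UMIs were collapsed is not given in the sources used here, so counting intervals cover counting error only. The deposited table holds estimated counts for 2656 miRNAs, although its title calls them CPM. Of its nonzero values 3.04%, on 84 miRNAs, were not whole within 0.001, and these were rounded.

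Groups and replicate numbers were taken from the sample labels, 4 libraries in each of 6 groups. Those reaching 1 CPM in 4 or more libraries (905) entered the test, made in edgeR 4.0.16 (R 4.3.3) with TMM scaling and the quasi-likelihood test, group being the only term. Calls required an FDR below 0.01 and a fold change above 2, and SE was the log2 difference divided by the square root of F. The steps were tested on simulated counts. Ratios within a library were compared by exact 2-sided permutation tests after 0.5 was added to each count. Alternatives were other filters and scalings, DESeq2 1.42.0, limma 3.58.1 on log2(CPM + 1), a replicate block, a fit of only the groups compared, an FDR below 0.05, and leaving out each library.

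Named miRNAs were the members, the other arms of their clusters, the miR-10 arms and the miRNAs nearest in pattern. The members and lists were chosen with earlier results of these data known. Sequences and positions came from RefSeq (GRCh38.p14). Library totals of 959134 to 8283546 counts put 3 counts at 0.362 to 3.13 CPM. No libraries agreed within sampling noise.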

Additional observations from a re-analysis of the deposited data

Results flagged for a closer look

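Of 56 groups of 4 libraries, 10 held a library whose gap to the nearest other, divided by the range of the group, exceeded Dixon's critical value of 0.829. Chance gives about 1 in 20 groups for normally distributed values only. Groups with mostly 0 counts are not of that kind, so the number flagged cannot be set against that rate. For miR-100-5p, spheroid shNeg replicate 4 stood at 24.6 CPM against 0 to 2.57 in the others (ratio 0.896), and the spheroid calls of miR-100-5p rest on that library. For miR-99a-5p, adherent shRELB replicate 2 was low, at 46.8 CPM against 58.6 to 59.9 (0.896), and for miR-99a-3p adherent shRELB replicate 3 was high, at 6.85 CPM against 4.52 to 4.83 (0.864).

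Spheroid shRELB replicate 4 was high for both chromosome 19 guides, with miR-99b-5p at 38211 CPM against 19302 to 22191 (0.847) and miR-125a-5p at 118505 CPM against 82703 to 86265 (0.901). Spheroid shRELA replicate 1 was high for miR-125a-5p, at 122185 CPM against 98046 to 101224 (0.868). The remaining 4 were single libraries with 1 or 2 counts where the others had 0 (ratio 1.0): miR-99a-3p in adherent shRELA replicate 2 and in spheroid shRELA replicate 1, miR-100-5p in spheroid shRELA replicate 2, and miR-125b-1-3p in spheroid shNeg replicate 3.

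The RELA knockdown change differed between spheroid and adherent culture, by edgeR's interaction term, for miR-99a-5p (3.27 on the log2 scale), miR-125b-5p (1.60) and miR-125b-2-3p (3.87).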

How the results depend on the processing

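Of 27 called values of single members, 16 kept their call under every alternative that tested the member, 11 lost it under some, and 0 changed sign. Of 15 values not called with an unadjusted p under 0.05, 9 kept their side, 6 did not, and 1 changed sign: miR-99b-3p in spheroid shRELA against shNeg, at -0.01 with library totals in place of TMM. The ratio of miR-125b-1-3p to miR-125b-2-3p in spheroid shRELA against shNeg turned to 0.04 with 1 count added.

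With a filter at a mean of 10 CPM the members called were 2 in adherent shRELA against shNeg, 2 in spheroid shRELA and 0 in spheroid shRELB against shNeg, 1 between the shRELA cultures, and 2 in each comparison of shRELA with shRELB, since fewer members were tested. With limma the counts were 2 in spheroid shRELA and 0 in spheroid shRELB against shNeg, 1 between the shRELA cultures and 1 between the shRELB cultures. In a fit of only the groups compared they were 1 in adherent shRELB, 1 in spheroid shRELA and 0 in spheroid shRELB against shNeg, 1 between the shRELA cultures and 1 for the RELA difference between cultures. Adherent shRELB also had 1 with no filter on low counts and 1 at an FDR below 0.05. Where not said, the cause was not tested.

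Leaving out 1 library gave 4 to 5 members called in adherent shRELA against shNeg, 0 to 1 in adherent shRELB, 2 to 4 in spheroid shRELA and 0 to 1 in spheroid shRELB, 3 to 4 between cultures in shNeg, 1 to 3 in shRELA and 2 to 3 in shRELB, 4 in adherent and 3 to 4 in spheroid shRELA against shRELB, 2 to 3 for the RELA difference between cultures and 0 for the RELB difference. Spheroid shRELA fell to 2 without spheroid shNeg replicate 4, and the shRELA culture count to 1 without adherent shRELA replicate 1 or spheroid shRELA replicate 4.

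Replicate numbers did not pair the samples: over 60 same-numbered pairs the correlation of deviations ran from -0.245 to 0.225 (median -0.0105). With a replicate block the count in spheroid shRELB against shNeg was 0, miR-125a-5p passed between the shNeg cultures (-1.0), and no other count of members called moved by over 1.5 times.

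Library totals in place of TMM shifted the median log2 difference of all miRNAs by -0.39 (spheroid shRELA against shNeg) to 0.43 (shNeg cultures), and the share of calls that were higher from 49.6% to 19.1% and from 50.5% to 61.8%. In adherent shRELA the shift was -0.11 (29.4% to 17.6%), in adherent shRELB 0.13 (from 32 of 64 calls to 62.2%) and in spheroid shRELB -0.27 (54.5% to 34.1%). Depth limits the shRELA values of both miR-99a arms, miR-100-5p and miR-125b-2-3p, which rest on 0 to 12 counts a library.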

Other observations

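Other miRNAs of chromosome 21, chosen after their values were seen, gave a mixed picture. Of 9 tested, 1 was called in adherent shRELA against shNeg, miR-155-5p, an immune-regulated miRNA and known NF-κB target, which was higher (log2 difference 2.34). It was also called higher in adherent shRELB (3.10), spheroid shRELA (3.31) and spheroid shRELB (3.84). miR-6724-5p was called lower in spheroid shRELA (-2.0). Apart from miR-155-5p (mean 42.6 CPM) and miR-6724-5p (13.2 CPM), these miRNAs had means of only 0.575 to 4.08 CPM. The lack of a call says little at such levels. In adherent shRELA the log2 differences ran from -3.41 (miR-10396a-5p, not called) to 2.34. The median over the 9 was -0.05 in adherent shRELA, where the tested members of chromosome 21 lay between -5.54 and -4.93.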
